A study of Mus musculus with 12 samples.

Results

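The proteasome subunit genes were followed with age in the ventral tegmental area (VTA), the midbrain region that holds a large share of the dopamine neurons. The members were all probe sets annotated to exactly 1 gene whose symbol is Psm, a letter from a to g and a number. The interferon-inducible catalytic subunits Psmb8 and Psmb9 were left out, while Psmb10, also inducible, was kept. This gave 97 probe sets of 45 genes, out of 45037 probe sets and 18193 genes with a probe set of their own. RNA came from the VTA of wild type C57BL/6 mice aged 2, 10 or 18 months, hybridised to Affymetrix whole-genome mouse arrays with 4 arrays per age, each from a pool of 5 mice. No treatment or transgene was involved, and all groups shared the strain, the tissue and the labelling of RNA amplified over 2 cycles. The question was whether the core, the base and the lid of the proteasome change in step between 2, 10 and 18 months.

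The proteasome is the main protease for proteins tagged with ubiquitin. Its barrel-shaped core is built of alpha subunits (Psma), which form the outer rings and the gate, and beta subunits (Psmb), which form the inner rings and carry the catalytic sites. A regulatory particle caps the barrel. The base of this cap holds the ATPases (Psmc) that unfold and thread the substrate, together with large scaffold subunits and a ubiquitin receptor, and the lid holds the deubiquitinase Psmd14 and its scaffold. Other activators (Psme) and an inhibitor (Psmf1) bind the ends of the barrel, and chaperones (Psmg, Psmd5, Psmd9, Psmd10) assist the assembly. In dopamine neurons the system is studied because loss of proteasome activity harms these cells in experimental models. The transcription factors Nfe2l1 and Nfe2l2 raise proteasome gene expression in mammalian cells through antioxidant response elements.

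By structure, the members fell into 17 probe sets of 7 core alpha genes, 11 of 7 core beta genes, 18 of 9 base genes, 21 of 8 lid genes, 14 of 4 activator and inhibitor genes, 13 of 7 assembly chaperone genes, and 3 of 3 further core genes. These 3 were the tissue-restricted Psma8 and Psmb11 and the inducible Psmb10. Of the 97 probe sets, 83 had a mean level above the lower quartile of all probe sets. Psma8, a testis form of an alpha subunit, was the only gene with all its probe sets below that quartile. Psme2, a subunit of an activator, was measured only by a probe set shared with Psme2b and was therefore no member.

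Arrays 3 and 4 of the 2-month group were almost the same (r = 0.998, 1 probe set more than 1 log2 unit apart, against 85 to 4905 such probe sets in the other 17 pairs of arrays of one age). They were averaged and counted as 1 sample, which left 3, 4 and 4 samples at 2, 10 and 18 months. The 3′ minus 5′ signal of the Actb and Gapdh control probe sets depends on RNA integrity and on how far cDNA synthesis ran from the 3′ end. It was 3.47 ± 0.17 log2 units at 2 months, 2.15 ± 0.34 at 10 months and 1.98 ± 0.24 at 18 months (SD, n = 3, 4 and 4). The 2-month range (3.29 to 3.63) overlapped neither the 10-month range (1.69 to 2.44) nor the 18-month range (1.64 to 2.17), so age and this measure moved together. Nothing in the labels says that the pools of one age were collected on separate occasions, so p-values measure the spread between these samples. In bulk tissue, fewer cells of a type and less RNA per cell cannot be told apart. The dopaminergic markers were present: none of 9 lay below the lower quartile, and their summed log2 level was 15.87 to 16.03 at 2 months, 16.07 to 16.31 at 10 months and 16.17 to 16.38 at 18 months. At 18 against 2 months Th, the enzyme that starts dopamine production, rose (0.84, adjusted p = 0.00735, limma), and the transcription factors Foxa2 (-0.61, adjusted p = 0.029) and En1 (-0.54, adjusted p = 0.0162) fell, while the other 6 did not pass the test. Of 10 microglial markers, 4 rose and none fell at 18 against 2 months, with summed levels of 13.35 to 13.59, 13.62 to 14.13 and 13.84 to 13.93 at 2, 10 and 18 months. Of 7 pan-neuronal markers, 3 rose and 1 fell, with summed levels of 14.80 to 15.15, 15.12 to 15.82 and 15.59 to 15.80. The part of these shifts in the values below was not tested.

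At 18 against 2 months, 13 of the 97 probe sets rose and 2 fell at an adjusted p under 0.05 and a change over 1.3-fold (limma). The 15 changed probe sets made up 15.5% of the members, against 7.46% of all probe sets on the array (4.55% higher and 2.91% lower). Because proteasome genes are bright, the share was also set against bright probe sets: 15 of the 70 members above the median level changed (21.4%), against 12.5% of all probe sets above it. The risers came from every large group. They were Psma4, Psmb2, Psmb3 and Psmb4 of the core, Psmc3 and Psmd4 of the base, Psmd7, Psmd8 and Psmd12 of the lid, the activator Psme4, the inhibitor Psmf1, and the chaperones Psmd5 and Psmg2. A probe set of the core subunit Psmb1 and a probe set of the lid subunit Psmd13 fell. Changes ran between 1.35-fold and 2.33-fold.

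Each gene had 1 changed probe set, and in 8 of the 15 genes it was the brightest probe set of the gene. At the brightest probe sets, 7 of 45 genes rose and 1 fell (17.8%, against 8.82% of all genes). The 18-month and 2-month samples did not overlap in 31 of 97 probe sets (32%, against 23.6% of all), 20 of them higher (against 10.4% of all) and 11 lower (against 13.1%) at 18 months. The median change over the 45 genes was 0.08 log2 units, against -0.02 over all genes at their brightest probe set and 0.04 over those above the median level.

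**Figure D1:**
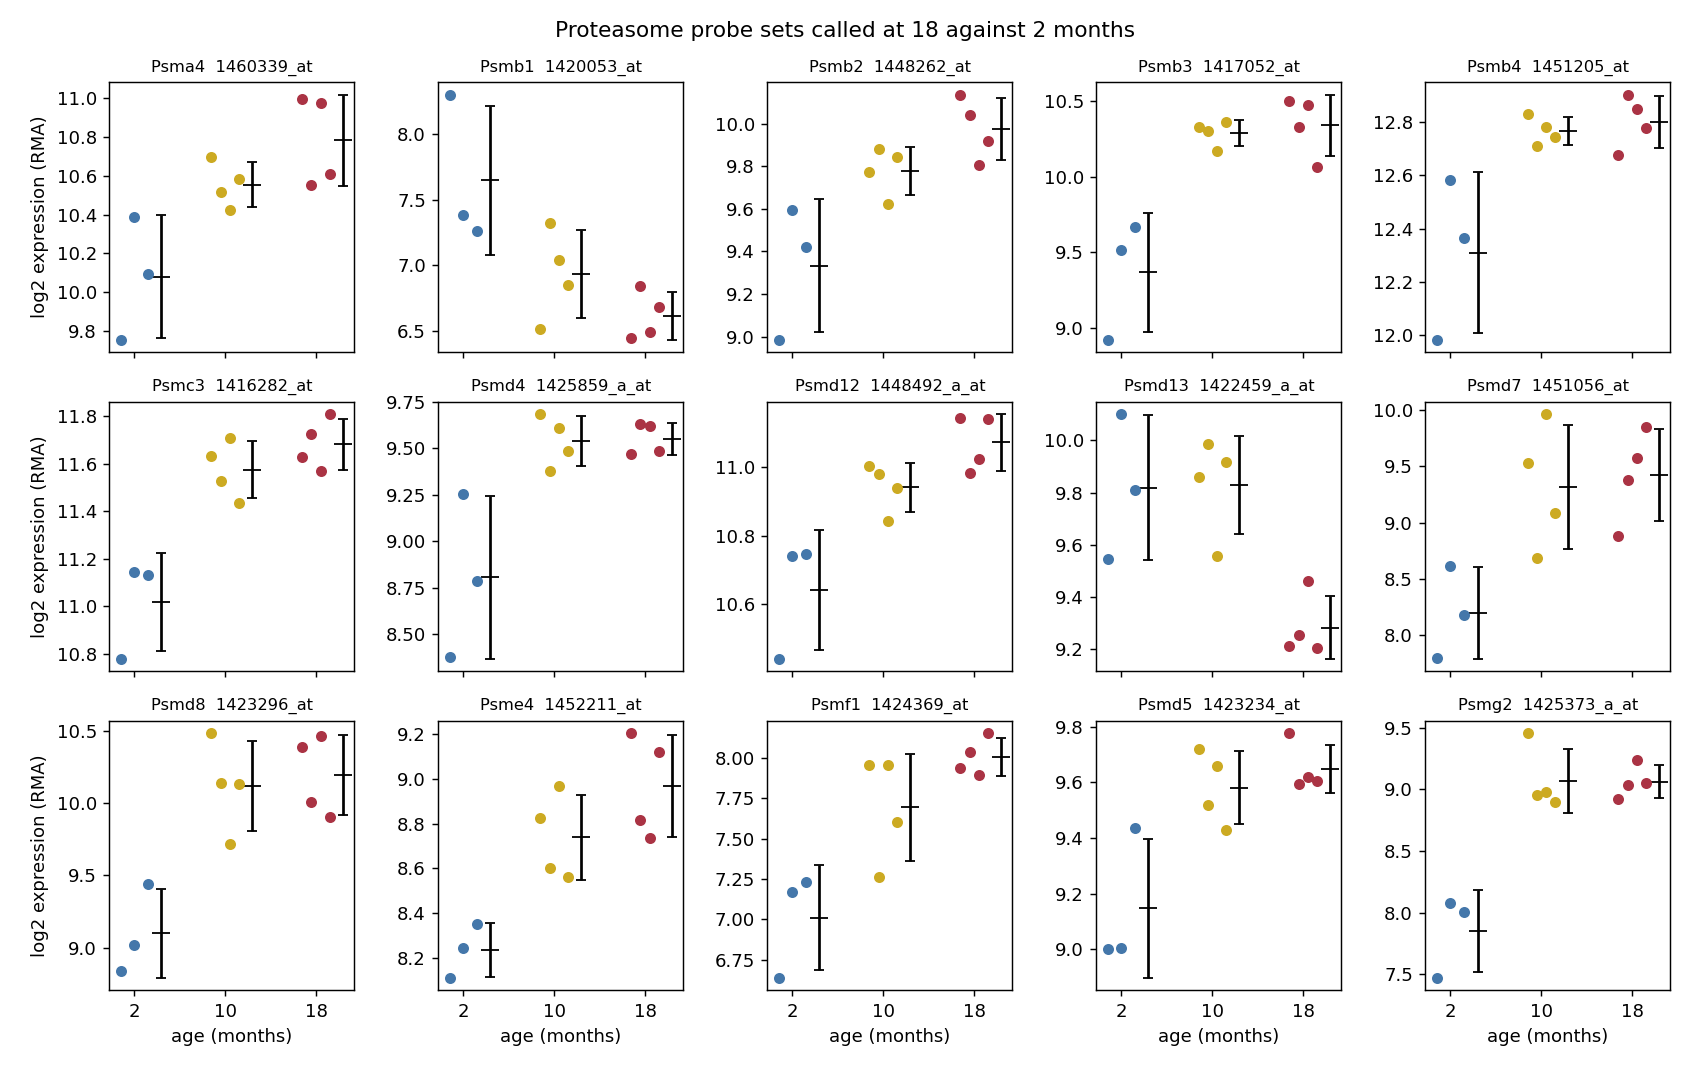
Log2 RMA level of the 15 changed probe sets in each sample at 2, 10 and 18 months (n = 3, 4 and 4), with the mean and SD of each age, one panel per probe set with its own axis. In all 15 panels, picked by the call between these ages, the 18-month points lie clear of the 2-month points. In the 13 panels with higher levels at 18 months the lowest point is sample 1 of the 2-month group.

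The plot of the changed probe sets by age shows that sample 1 of the 2-month group was the lowest of all 11 samples in all 13 probe sets that rose. The selection by call favours a 2-month sample as the lowest, but not which of them. Sample 1 of the 2-month group also had the highest 3′ minus 5′ signal of all 11 samples (3.63). Of 5 choroid plexus genes, Ttr read 9.92 in it, against 7.29 and 7.64 in the other 2-month samples and at most 8.64 at the older ages. Clic6, of the same list, was lowest in it (6.87), and 2 of the 5 genes lay below the lower quartile. The part of these traits in the calls was not tested. Without sample 1 of the 2-month group, 2 of the 97 probe sets changed at 18 against 2 months. They were Psmb3 1417052_at (0.75 ± 0.14, adjusted p = 0.044, limma) and Psmg2 1425373_a_at (1.02 ± 0.17, adjusted p = 0.0314). This fit had 2 samples left at 2 months. Its share over all probe sets is not given here, so the loss of calls cannot be called particular to these genes. Psmb3 1417052_at and Psmg2 1425373_a_at are named in what follows. These 2 were also the only probe sets of the 15 that kept their call whichever of the 11 samples was left out. With the 3′ minus 5′ signal of each array as a covariate no member passed the test, and 12 of the 15 kept their sign. The median size of the 15 changes was 0.27, against 0.73 without the covariate, and their median SE was 0.42, against 0.16. Each of the 15 then had an adjusted p of 0.99998 (limma). The signal nearly tracks age, so this fit cannot separate it from age. The share of all probe sets called with the covariate is not given here.

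Promoter sequence was available for 37 member genes, as 39 windows of 250 bases before the transcription start (RefSeq, GRCm38.p6). A loose form of the antioxidant response element, TGANNNNGC on either strand, is here called the loose element. It was present in 15 of the 39 windows (38.5%), against 35.2% of 32851 promoters of the same length. Of the 15 changed genes, 10 had a window and 4 of these held the loose element. They are shown, 5′ to 3′ on the strand of the gene and ending at the base before the start. The loose element fixes fewer letters than the stricter form given below, so a match need not be a site of Nfe2l1 or Nfe2l2. Capitals mark each match.
Psma4 promoter, chr9:54950609-54950858, plus strand: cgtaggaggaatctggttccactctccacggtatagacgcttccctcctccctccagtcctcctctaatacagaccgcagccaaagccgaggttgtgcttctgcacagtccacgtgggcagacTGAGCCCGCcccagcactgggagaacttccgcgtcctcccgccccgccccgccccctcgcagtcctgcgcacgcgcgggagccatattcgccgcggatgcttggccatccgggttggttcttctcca
Psmb3 promoter, chr11:97703184-97703433, plus strand: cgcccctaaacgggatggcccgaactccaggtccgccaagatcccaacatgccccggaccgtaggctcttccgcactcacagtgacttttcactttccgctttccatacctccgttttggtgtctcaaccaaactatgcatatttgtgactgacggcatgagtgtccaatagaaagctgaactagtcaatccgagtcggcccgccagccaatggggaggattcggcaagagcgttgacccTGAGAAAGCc
Psmd5 promoter, chr2:34870963-34871212, minus strand: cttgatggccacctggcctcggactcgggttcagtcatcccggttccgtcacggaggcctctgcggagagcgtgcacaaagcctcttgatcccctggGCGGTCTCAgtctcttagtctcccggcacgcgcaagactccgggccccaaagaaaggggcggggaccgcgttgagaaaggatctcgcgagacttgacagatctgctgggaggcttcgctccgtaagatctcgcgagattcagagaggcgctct
Psmd12 promoter, chr11:107479278-107479527, plus strand: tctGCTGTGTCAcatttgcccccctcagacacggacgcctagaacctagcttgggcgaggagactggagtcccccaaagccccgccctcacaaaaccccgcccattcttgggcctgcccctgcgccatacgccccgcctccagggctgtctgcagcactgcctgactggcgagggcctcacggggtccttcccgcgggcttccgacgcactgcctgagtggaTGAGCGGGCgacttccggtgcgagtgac
The match of Psma4 began 127 bases before the start and that of Psmb3 only 10 bases before it, both in the forward orientation. Psmd5 held a reverse match 153 bases before the start. Psmd12 held a reverse match at 247 bases and a forward match at 28 bases. The stricter element TGACTCAGC was in none of the 39 windows and in 0.39% of all promoters. The CCAAT box stood in 13 windows (33.3%, against 33.8% of all), the ETS site CCGGAAGT in 6 windows of 5 genes (15.4%, against 2.88%, in Psmc1, Psmc2, Psmd6, Psmd12 and Psme4), and the palindromic site of nuclear respiratory factor 1 in 1 (2.56%, against 0.782%, in Psma2). All 5 motifs, chosen after a first look at these promoters, were searched on both strands. Each match of the stricter element is by its letters also a match of the loose element. A match describes the letters of the window only.

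Among the alpha subunits, which gate the core, Psma4 was the 1 gene of 7 that rose. Psma4 1460339_at read 9.76, 10.39 and 10.10 at 2 months, 10.69, 10.52, 10.42 and 10.58 at 10 months, and 10.99, 10.55, 10.97 and 10.61 log2 units at 18 months. All 4 samples at 18 months and all 4 at 10 months lay above the 3 at 2 months. The change was 0.70 ± 0.16 (SE) at 18 against 2 months (1.62-fold, adjusted p = 0.0268, limma) and 0.47 ± 0.16 at 10 against 2 months (adjusted p = 0.174). Among the brightest probe sets, Psma1 1415695_at had the next largest difference (0.50 ± 0.15), with the 18-month and the 2-month samples apart. It did not pass the test (adjusted p = 0.0593). At the low end of the brightest probe sets stood Psma5 1434356_a_at, at -0.19 ± 0.12 (adjusted p = 0.387). A dimmer probe set, Psma3 1441707_at, lay lower, at -0.55 ± 0.16 (adjusted p = 0.0599). All its samples at 10 and 18 months lay below all 2-month samples. The median over the 7 genes was -0.05, with 3 positive and 4 negative.

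The beta subunits moved in both directions. Psmb2, a beta subunit without catalytic activity, rose at its brightest probe set 1448262_at: it read 8.99, 9.59 and 9.42 at 2 months, 9.77, 9.88, 9.62 and 9.84 at 10 months, and 10.14, 10.04, 9.81 and 9.92 at 18 months. The samples of 18 and 2 months did not overlap, and the change was 0.64 ± 0.15 (1.56-fold, adjusted p = 0.0246, limma). Psmb4, likewise noncatalytic, rose at 1451205_at by 0.49 ± 0.13 (1.41-fold, adjusted p = 0.0452), with 11.98, 12.58 and 12.36 at 2 months, 12.83, 12.71, 12.78 and 12.74 at 10 months, and 12.68, 12.90, 12.85 and 12.78 at 18 months. Its lowest sample at 18 months lay 0.094 units above its highest at 2 months. The brighter probe set of Psmb4, 1438984_x_at, had a change of -0.35 ± 0.11 that did not pass the test (adjusted p = 0.0703). There all 18-month samples lay below all 2-month samples.

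Psmb3, a noncatalytic subunit whose promoter is shown above, gave the most stable rise of the core when samples were left out, at a probe set that disagreed with the brightest one of the gene. At 1417052_at it read 8.92, 9.52 and 9.67 at 2 months, 10.33, 10.30, 10.17 and 10.36 at 10 months, and 10.50, 10.33, 10.47 and 10.06 at 18 months. Both older ages lay wholly above 2 months, with changes of 0.97 ± 0.17 at 18 against 2 months (1.96-fold, adjusted p = 0.00974, limma) and 0.92 ± 0.17 at 10 against 2 months (1.89-fold, adjusted p = 0.0379). At its brightest probe set, 1460198_a_at, the levels were 12.25, 11.76 and 12.02 at 2 months, 11.59, 12.06, 11.26 and 11.57 at 10 months, and 11.91, 11.41, 11.54 and 11.31 at 18 months. There the ages overlapped and the change was -0.47 ± 0.20 (adjusted p = 0.175).

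Psmb1, also noncatalytic, had the larger of the falls. At 1420053_at it read 8.30, 7.38 and 7.26 at 2 months, 6.51, 7.32, 7.04 and 6.85 at 10 months, and 6.44, 6.84, 6.49 and 6.68 at 18 months. All 18-month samples lay below all 2-month samples, with a change of -1.03 ± 0.25 (2.05-fold, adjusted p = 0.0296, limma), while at 10 months 1 sample overlapped. The highest value came from sample 1 of the 2-month group, without which the change was -0.71 ± 0.20 (adjusted p = 0.129). With the 3′ minus 5′ covariate it was 0.20 ± 0.59, of the opposite sign. At the brightest probe set of Psmb1, 1448166_a_at, the change was 0.20 (adjusted p = 0.798). Another probe set of Psmb1, 1420052_x_at, had -0.47 ± 0.14 without a call (adjusted p = 0.0562), with all 18-month samples below all 2-month samples.

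The catalytic subunits Psmb5, Psmb6 and Psmb7 did not pass the test, with changes of 0.17 (adjusted p = 0.514), -0.14 (adjusted p = 0.672) and 0.49 (adjusted p = 0.313). Over the 7 beta genes the median was 0.17, with 4 positive and 3 negative. The further core genes Psma8, Psmb10 and Psmb11 gave no call: Psmb10, the inducible counterpart of Psmb7, had 0.14 ± 0.13 (adjusted p = 0.573), and Psmb11, the thymus subunit, had -0.11 ± 0.13 (adjusted p = 0.687). Psmb10 1448632_at read 9.63, 9.75 and 9.87 at 2 months, 10.08, 10.31, 9.79 and 10.18 at 10 months, and 9.92, 9.89, 10.01 and 9.74 at 18 months. Its highest values were thus at 10 months, without a call at 10 against 2 months (0.34, adjusted p = 0.227).

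In the base, the ATPase Psmc3 was the clearest riser. Psmc3 1416282_at read 10.78, 11.14 and 11.13 at 2 months, 11.63, 11.53, 11.71 and 11.43 at 10 months, and 11.63, 11.72, 11.57 and 11.81 at 18 months. Neither older age overlapped with 2 months. The change was 0.66 ± 0.12 at 18 against 2 months (1.58-fold, adjusted p = 0.0108, limma) and 0.56 ± 0.12 at 10 against 2 months (1.47-fold, adjusted p = 0.0496). Without sample 1 of the 2-month group it was 0.55 ± 0.12 at 18 against 2 months (adjusted p = 0.0655), with a call kept in the other 10 leave-outs.

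Psmd4, the ubiquitin receptor of the base, rose at 1425859_a_at by 0.75 ± 0.17 (1.68-fold, adjusted p = 0.0259, limma). It read 8.38, 9.25 and 8.78 at 2 months, 9.69, 9.38, 9.61 and 9.49 at 10 months, and 9.47, 9.63, 9.62 and 9.49 at 18 months. The older ages lay close together and above 2 months, but the other probe sets of Psmd4 gave 0.36 (1418874_a_at, the brightest) and -0.14 (1451725_a_at), without a call. Without sample 1 of the 2-month group the change at 1425859_a_at was 0.53 ± 0.15 (adjusted p = 0.122), and with the 3′ minus 5′ covariate it was -0.025 ± 0.43.

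The other ATPases did not pass the test at their brightest probe sets. Psmc4 1416290_a_at had the most negative value, -0.40 ± 0.21 (adjusted p = 0.277), reading 11.84, 11.36 and 11.83 at 2 months, 11.61, 11.82, 11.21 and 11.65 at 10 months, and 11.65, 10.99, 11.52 and 10.95 at 18 months. Its samples overlapped between all ages. The scaffold subunit Psmd2, in which the 18-month and 2-month samples did not overlap, had 0.60 (adjusted p = 0.0601), and Psmc5 had 0.42 (adjusted p = 0.134). Outside the brightest probe sets, Psmc6 1417769_at lay just past the threshold, at 0.97 ± 0.27 (adjusted p = 0.0504). Of the 9 base genes, 6 had a positive and 3 a negative change, with a median of 0.36.

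The lid held the widest contrasts, with 3 of 8 genes that rose and 1 that fell at the brightest probe set. Psmd7, the partner that holds the deubiquitinase Psmd14 in place, read 7.80, 8.62 and 8.18 at 2 months, 9.53, 8.69, 9.97 and 9.08 at 10 months, and 8.89, 9.38, 9.57 and 9.85 at 18 months (1451056_at). The lowest 10-month sample was 0.07 units above the highest 2-month sample. The change was 1.22 ± 0.31 at 18 against 2 months (2.33-fold, adjusted p = 0.035, limma) and 1.12 ± 0.31 at 10 against 2 months (adjusted p = 0.095), the largest SE of the 15. The call at 18 against 2 months remained in 4 of 11 leave-outs, and with the 3′ minus 5′ covariate the change was -0.46 ± 0.69, of the opposite sign. Another probe set of Psmd7 above the lower quartile, 1432820_at, had -0.15 ± 0.10 at 18 against 2 months, without a call (adjusted p = 0.42). Psmd14 itself had 0.14 at 18 against 2 months (adjusted p = 0.466).

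Psmd8, a scaffold subunit of the lid, read 8.84, 9.02 and 9.44 at 2 months, 10.49, 10.14, 9.72 and 10.13 at 10 months, and 10.39, 10.01, 10.47 and 9.91 at 18 months (1423296_at). It rose by 1.10 ± 0.21 at 18 against 2 months (2.14-fold, adjusted p = 0.0121, limma) and by 1.02 ± 0.21 at 10 against 2 months (2.03-fold, adjusted p = 0.0448). Both older ages were clear of 2 months. Without sample 1 of the 2-month group the change at 18 against 2 months was 0.97 ± 0.23 (adjusted p = 0.0818). Psmd12, another scaffold subunit, whose promoter held 2 matches of the loose element, rose less. Psmd12 1448492_a_at read 10.44, 10.74 and 10.75 at 2 months, 11.00, 10.98, 10.84 and 10.94 at 10 months, and 11.15, 10.98, 11.02 and 11.14 at 18 months. Here too the ages 18 and 2 months were apart, with a change of 0.43 ± 0.11 (1.35-fold, adjusted p = 0.0331).

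Psmd13, a scaffold subunit of the same lid, fell at 18 against 2 months, with its 10-month values inside the 2-month range. Psmd13 1422459_a_at read 9.55, 10.10 and 9.81 at 2 months, 9.86, 9.99, 9.56 and 9.92 at 10 months, and 9.21, 9.25, 9.46 and 9.21 at 18 months. All 4 samples at 18 months lay below all samples of both younger ages. The change was -0.54 ± 0.15 at 18 against 2 months (1.45-fold, adjusted p = 0.0487, limma), 0.01 ± 0.15 at 10 against 2 months (adjusted p = 0.987) and -0.55 ± 0.14 at 18 against 10 months (unadjusted p = 0.00186, adjusted p = 0.847). A second probe set of the gene, 1437220_x_at, had -0.40 at 18 against 2 months and -0.45 at 18 against 10 months, without a call. The adjusted p of the 18 against 2 months change was 0.0678 without sample 1 of the 2-month group, although the change was then larger (-0.67 ± 0.15). The median over the 8 lid genes was 0.02, with 4 positive and 4 negative.

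**Figure D2:**
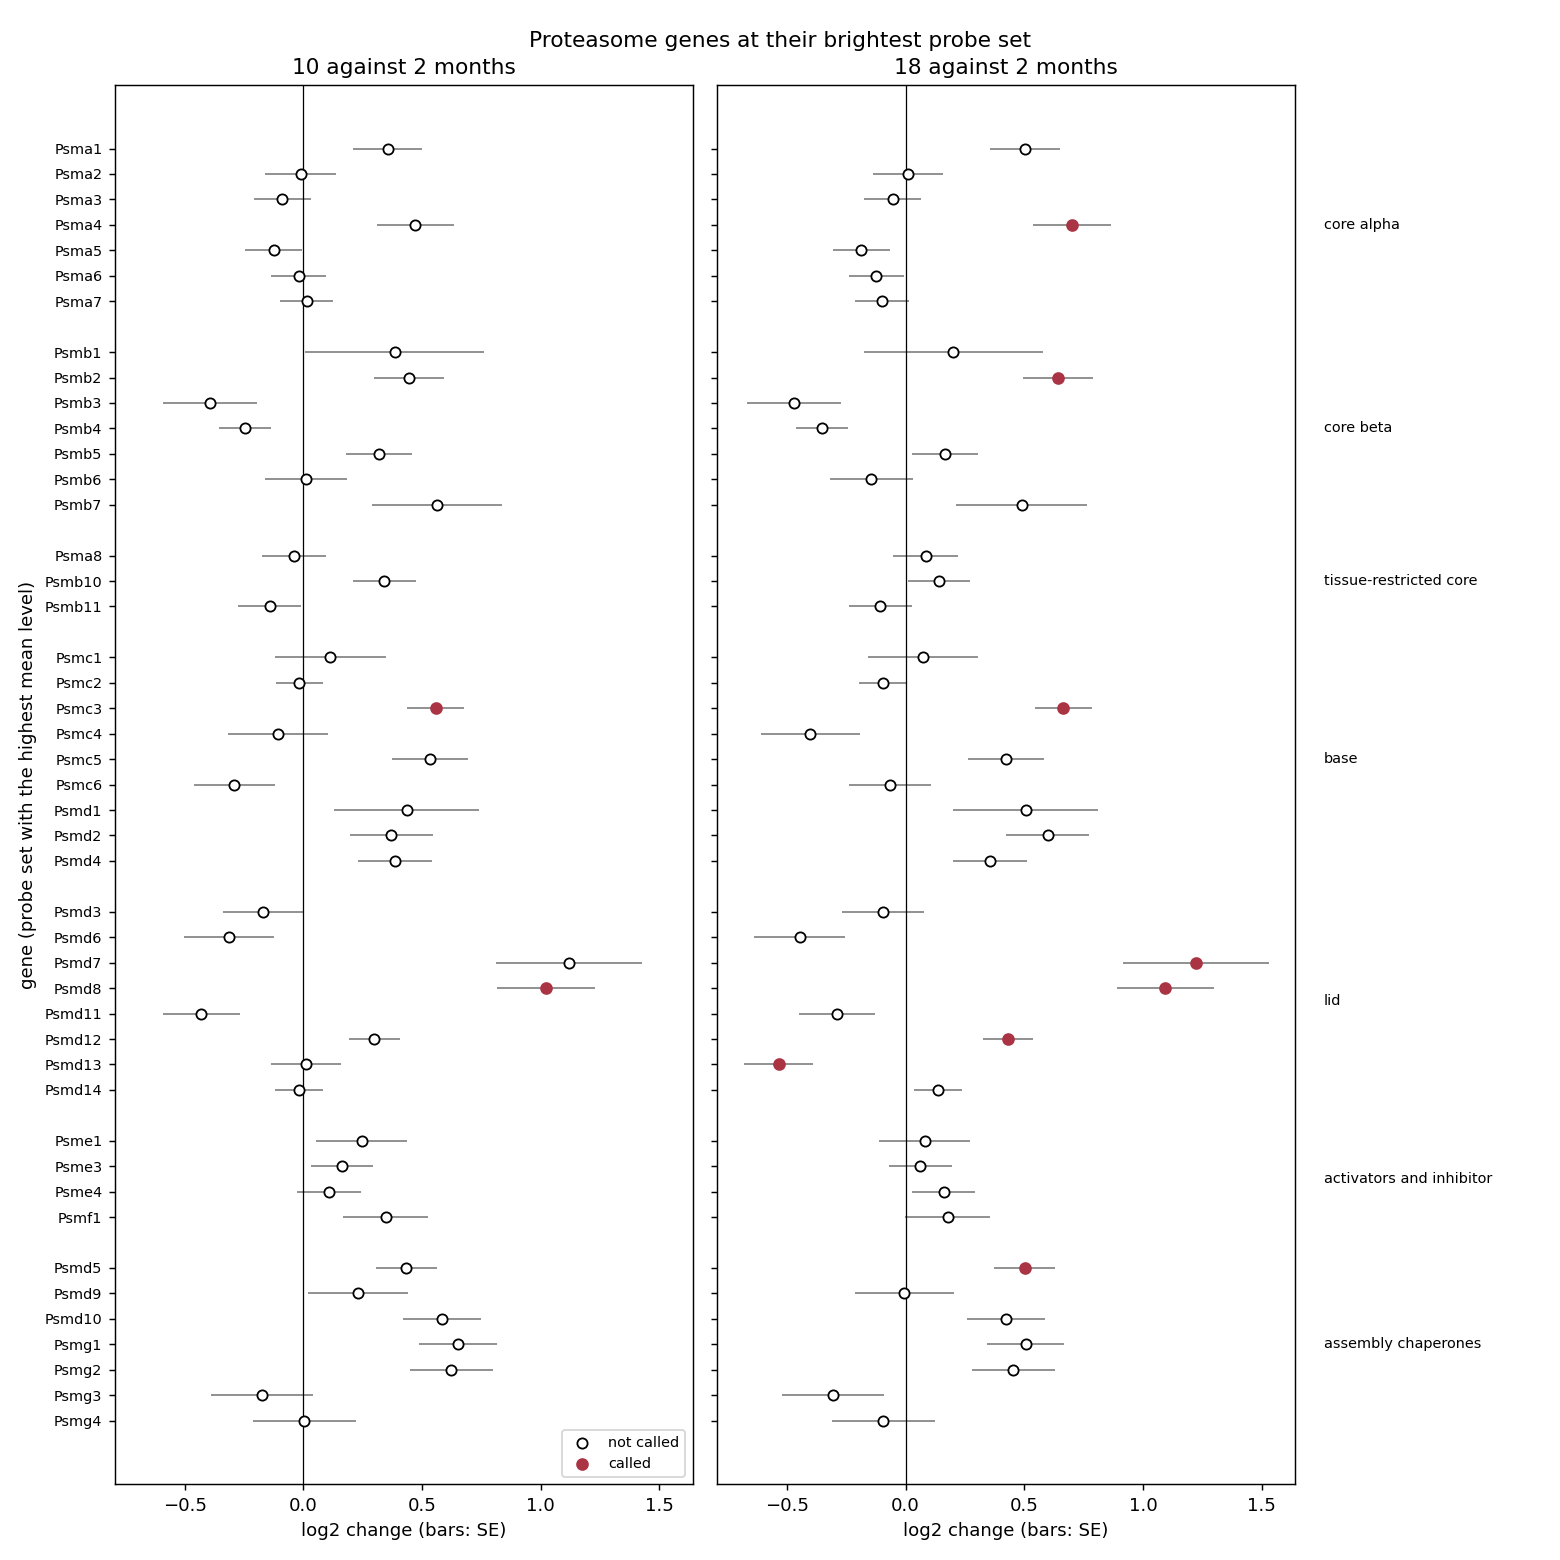
Log2 change of the 45 genes at the brightest probe set, grouped by part of the proteasome, at 18 against 2 months and at 10 against 2 months, with SE bars and filled points for adjusted p under 0.05 with over 1.3-fold. Psmd7 and Psmd8 stand highest and Psmd13 lowest at 18 against 2 months, and the base lies mostly to the right of 0. The label tissue-restricted core covers Psma8, Psmb11 and the inducible Psmb10.

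The activators and the inhibitor changed only at probe sets that were not the brightest. Psme4, a large activator that caps the core without ATP, rose at 1452211_at: it read 8.11, 8.24 and 8.35 at 2 months, 8.82, 8.60, 8.97 and 8.56 at 10 months, and 9.20, 8.82, 8.73 and 9.12 at 18 months. Both older ages were clear of 2 months, with a change of 0.73 ± 0.15 at 18 against 2 months (1.66-fold, adjusted p = 0.0147, limma) and 0.50 at 10 against 2 months (adjusted p = 0.112). Without sample 1 of the 2-month group the change was 0.67 ± 0.17 (adjusted p = 0.0925). At the brightest probe set of Psme4, 1426823_s_at, the change was 0.16 (adjusted p = 0.519).

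Psmf1, which inhibits the core in vitro, rose at 1424369_at by 1.0 ± 0.19 (1.99-fold, adjusted p = 0.0124, limma). It read 6.64, 7.17 and 7.23 at 2 months, 7.96, 7.26, 7.95 and 7.61 at 10 months, and 7.94, 8.04, 7.89 and 8.16 at 18 months. The 18-month samples lay at least 0.66 units above the 2-month samples, and without sample 1 of the 2-month group the change was 0.81 ± 0.19 (adjusted p = 0.0772). Other probe sets of Psmf1 gave 0.18 ± 0.18 (1451337_at, the brightest, adjusted p = 0.601) and -0.47 (1424371_at, adjusted p = 0.118). Psme1 and Psme3, subunits of ring-shaped activators, had 0.08 and 0.06 ± 0.13 (adjusted p = 0.844 and 0.823).

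Among the assembly chaperones, Psmg2 had the smallest adjusted p of all 97 probe sets. Psmg2, which with Psmg1 helps to build the alpha ring, read 7.47, 8.08 and 8.01 at 2 months, 9.46, 8.95, 8.98 and 8.90 at 10 months, and 8.92, 9.04, 9.24 and 9.05 at 18 months (1425373_a_at). Both older ages lay clear of 2 months, and the changes were 1.21 ± 0.17 at 18 against 2 months (2.32-fold, adjusted p = 0.00508, limma) and 1.22 ± 0.17 at 10 against 2 months (2.33-fold, adjusted p = 0.0263). At the brightest probe set of Psmg2, 1448212_at, the change was 0.45 (adjusted p = 0.142). Its partner Psmg1 had 0.51 ± 0.16 at 18 against 2 months and 0.65 ± 0.16 at 10 against 2 months, without a call (adjusted p = 0.0816 and 0.0722), although 1448307_at read 8.94, 9.15 and 9.37 at 2 months, 9.91, 10.06, 9.39 and 9.86 at 10 months, and 9.66, 9.54, 9.84 and 9.60 at 18 months, with no overlap of either older age with 2 months.

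Psmd5, a chaperone of the base ATPases, rose at its brightest probe set, 1423234_at, by 0.50 ± 0.13 (1.42-fold, adjusted p = 0.0373, limma). It read 9.0, 9.0 and 9.44 at 2 months, 9.72, 9.52, 9.66 and 9.43 at 10 months, and 9.78, 9.59, 9.62 and 9.61 at 18 months, so the 18-month samples were clear of 2 months and the 10-month samples were not. Psmg3, of a further chaperone pair, had the most negative value among the brightest probe sets, -0.31 ± 0.22 (adjusted p = 0.435). Its dimmer probe set 1430572_at had -0.41, without a call. The median over the 7 chaperone genes was 0.42, with 4 positive and 3 negative.

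Sample 1 of the 2-month group decided calls among large and small changes alike. Without it the changes at 18 against 2 months were 0.54 ± 0.16 for Psma4, 0.47 ± 0.13 for Psmb2, 0.33 ± 0.11 for Psmb4, 0.33 ± 0.11 for Psmd12, 0.43 ± 0.14 for Psmd5 and 1.02 ± 0.34 for Psmd7 (limma, adjusted p between 0.121 and 0.2). The calls remained in 10 of the 11 leave-outs for Psmc3, Psmd8, Psmf1 and Psme4, 8 for Psmb2, 7 for Psma4 and Psmb1, 6 for Psmd4, 4 for Psmd7, 3 for Psmb4, Psmd5 and Psmd12, and 2 for Psmd13.

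Core, base and lid did not move as blocks of one size. At 18 against 2 months the median change at the brightest probe sets was -0.02 for the 14 core genes, 0.36 for the base and 0.02 for the lid, while 2 core genes, 1 base gene and 3 lid genes rose and 1 lid gene fell. At 10 against 2 months the medians were 0.01 for the core, 0.37 for the base and -0.00 for the lid. At 10 against 2 months 1 base gene and 1 lid gene rose, and no core gene. No test was made of the medians. The brightest probe sets mixed the types of probe set described below, and the share of type in these medians was not tested. The order of the medians also depended on the setting. With the 3′ minus 5′ covariate the medians at 18 against 2 months were 0.075 for the core, -0.082 for the base and -0.19 for the lid. With the mean over the probe sets of each gene they were 0.093, 0.37 and 0.15. Per sample, the median deviation of the base genes from their 2-month mean was -0.24, 0.13 and 0.04 at 2 months, 0.31, 0.12, 0.43 and 0.10 at 10 months, and -0.03, 0.45, 0.28 and 0.32 at 18 months. Both older ages overlapped with 2 months, and the base median at 18 against 2 months was 0.18 without sample 1 of the 2-month group. For the core these deviations were -0.05, 0.01 and 0.05 at 2 months, 0.06, 0.28, -0.15 and 0.16 at 10 months, and 0.02, -0.12, 0.07 and -0.10 at 18 months. For the lid they were -0.17, 0.15 and 0.01 at 2 months, 0.06, 0.07, -0.06 and 0.07 at 10 months, and 0.12, -0.08, 0.09 and 0.03 at 18 months. Neither the core nor the lid separated the ages.

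**Figure D3:**
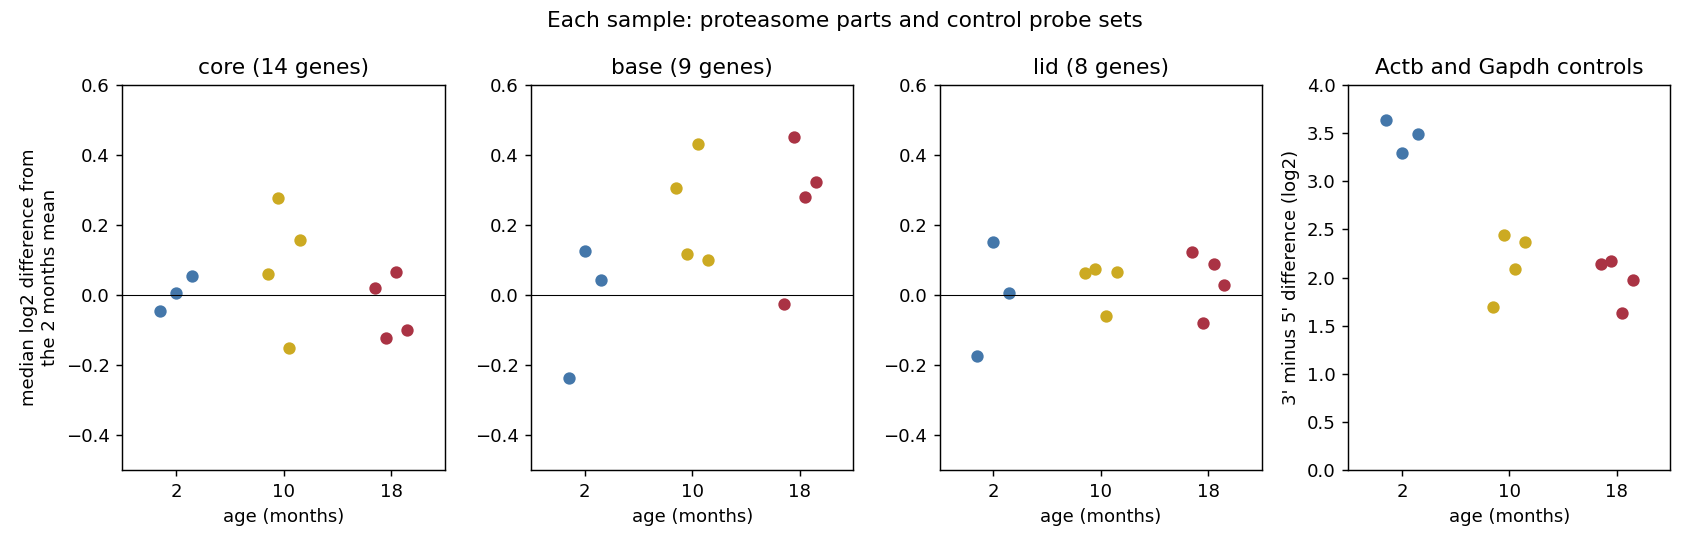
Median deviation of the core, base and lid genes from their 2-month mean in each sample (log2 units, brightest probe set), and the 3′ minus 5′ signal of the Actb and Gapdh control probe sets in the same samples, at 2, 10 and 18 months. The base medians lie mostly above 0 at 10 and 18 months but overlap with 2 months, whereas the 3′ minus 5′ signal is lower in all samples at 10 and 18 months.

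The direction of a gene depended on the probe set. Of the 22 genes with at least 2 probe sets above the lower quartile, 16 had changes of both signs at 18 against 2 months (72.7%, against 61.2% of 7272 such genes on the array). In 9 of these 22 genes a probe set passed the test (40.9%, against 26.4% of the 7272 genes). In none did all of them pass and in none did they pass in opposite directions, against 55 and 92 of the 7272 genes. The median range between the probe sets of a gene was 0.80 log2 units, against 0.52 over all such genes. The widest were Psmf1 (1.46), Psmb3 (1.44), Psmd7 (1.37), Psmb1 (1.24) and Psmd6 (1.22), the last with 0.78 at 1423697_at and -0.45 at 1423696_a_at, neither of which passed the test. The 7 probe sets of the lid scaffold Psmd11 lay between -0.54 and 0.54. At 10 against 2 months 15 of the 22 genes had both signs (68.2%, against 62.4%).

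This disagreement was in part ordered by the type of probe set. Probe sets whose name ends in a plain _at are designed to match one transcript, and those ending in _a_at, _s_at or _x_at match several transcripts of a gene or related sequences. Above the median level, 10 of 43 plain member probe sets rose and 1 fell, with a median of 0.43, against a median of 0.04 over all 16420 plain probe sets, of which 11.2% changed. Of the 27 others, 3 rose and 1 fell, with a median of -0.07, against -0.03 over all 6098, of which 15.9% changed. In 12 of the 16 genes with both types above the lower quartile, the mean of the plain probe sets was the higher (75.0%, against 62.4% of 3270 genes), by a median of 0.46 log2 units, against 0.16 over all such genes. Examples were Psmb3 (0.97 against -0.47), Psmd6 (0.78 against -0.45), Psmc4 (0.48 against -0.40), Psmb4 (0.49 against -0.35) and Psmc2 (0.67 against -0.10), while Psmb1 and Psmg2 ran the other way. The brightest probe sets of the base were plain in Psmc1, Psmc3, Psmc5, Psmd1 and Psmd2 (0.07, 0.66, 0.42, 0.51 and 0.60). The other base genes had -0.10 (Psmc2), -0.40 (Psmc4), -0.07 (Psmc6) and 0.36 (Psmd4). In the core they were plain in Psma1, Psma2, Psma4, Psmb2, Psmb6 and Psmb7 (0.50, 0.01, 0.70, 0.64, -0.14 and 0.49). The other core genes lay between -0.47 (Psmb3) and 0.20 (Psmb1). This split by type was made after the values were seen and is a description. Whether it follows the 3′ to 5′ shift of the arrays was not tested.

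**Figure D4:**
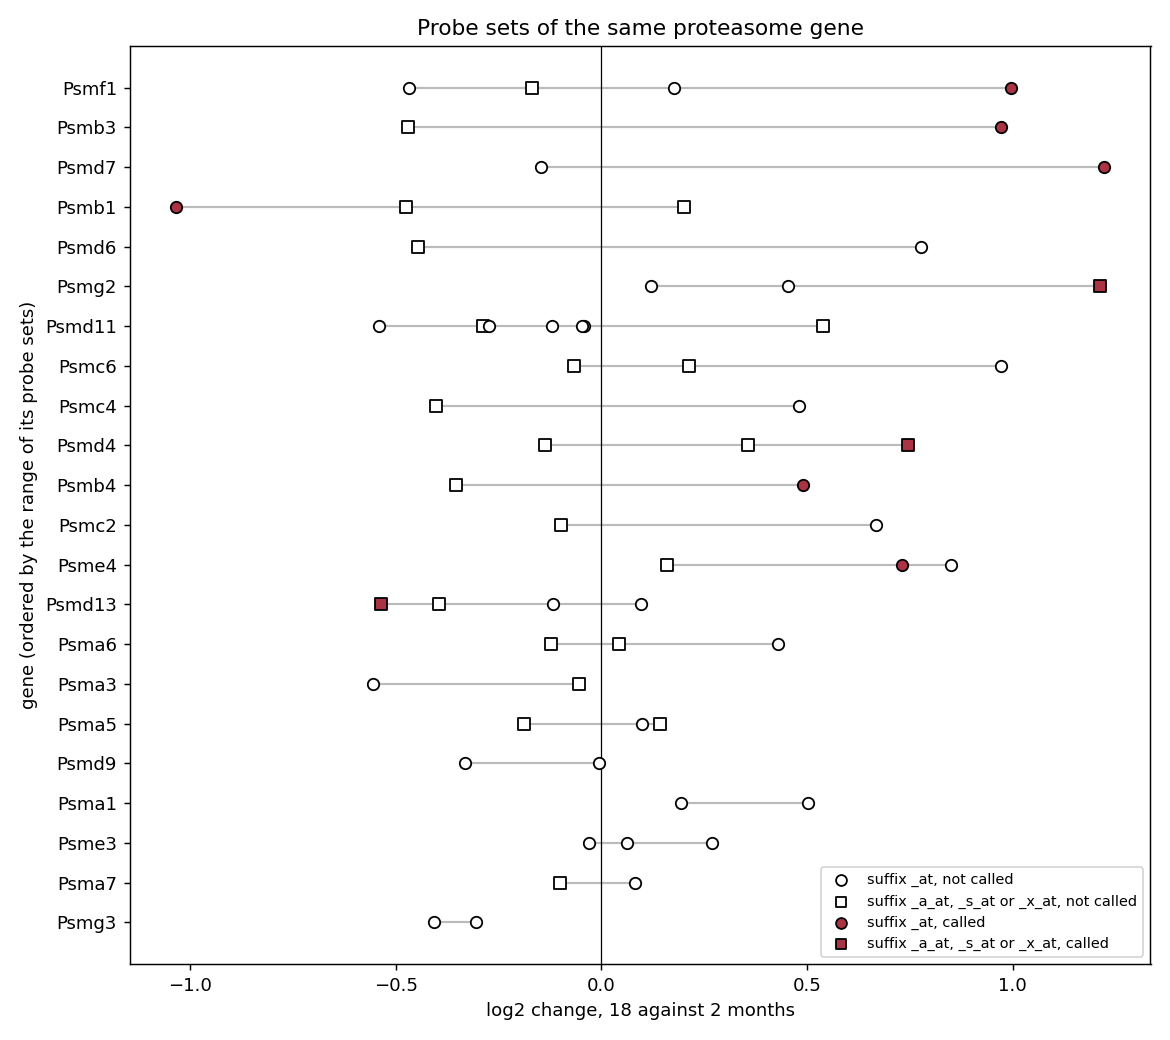
Log2 change at 18 against 2 months of every probe set above the lower quartile, for the 22 genes with at least 2 of them; circles are plain _at probe sets, squares the other types, and filled symbols passed the test. The symbols of 16 genes lie on both sides of 0, and in most genes with both types the circles lie to the right of the squares.

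At 10 against 2 months 4 of the 97 probe sets rose and none fell (4.12%, against 1.36% of all probe sets, 0.837% higher and 0.524% lower): Psmb3 1417052_at, Psmc3 1416282_at, Psmd8 1423296_at and Psmg2 1425373_a_at, whose values are given above. These 4 also rose at 18 against 2 months. At an unadjusted p under 0.05 there were 31 (32%, against 15.6% of all probe sets). Of the 97, 21 did not overlap between 10 and 2 months (21.6%, against 12.6% of all), 18 of them higher (against 6.35% of all) and 3 lower (against 6.25%) at 10 months. At the brightest probe sets 2 of 45 genes rose, Psmc3 and Psmd8 (4.44%, against 1.48% of all genes). Among the 70 members above the median level, 18 were higher without overlap (25.7%, against 9.9% of all probe sets above it) and none was lower (against 6.95%). No call at this age remained in all leave-outs: without sample 1 of the 2-month group there was none, and Psmg2 kept its call in 7 of the 11 leave-outs, Psmb3 in 3, Psmd8 in 2 and Psmc3 in 1.

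At 18 against 10 months no member passed the test, as was true of all but 1 of the 45037 probe sets (0.00222%). The smallest adjusted p among the members was 0.847, and 3 members had an unadjusted p under 0.05 (3.09%, against 5.06% of all). The samples of 3 members did not overlap between these ages (3.09%, against 2.73% of all). The comparisons of 18 and of 10 against 2 months share the 2-month samples. The difference between the 2 intervals, 10 minus 2 months against 18 minus 10 months, passed the test for no member (smallest adjusted p = 0.898, 15 members or 15.5% with an unadjusted p under 0.05, against 5.47% of all).

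Of 24 measured partners and regulators of the proteasome, 3 rose and 1 fell at 18 against 2 months at the brightest probe set. Of all genes, 8.82% changed there in either direction. The median over the 24 was 0.21, against -0.02 over all genes. In the 3 risers, sample 1 of the 2-month group was the lowest of all samples. Fits of these genes without that sample are not given here. Nfe2l2, the stress-responsive regulator named above, read 8.30, 8.72 and 8.60 at 2 months, 9.35, 9.08, 9.56 and 8.83 at 10 months, and 9.33, 9.49, 9.22 and 9.61 at 18 months. It rose by 0.87 ± 0.18 (adjusted p = 0.0156, limma), and the 2-month samples lay below all others. Ngly1, the deglycosylase that Nfe2l1 needs for its activity, rose by 0.72 ± 0.17 (adjusted p = 0.0303), with 9.14, 9.53 and 9.63 at 2 months, 10.03, 9.79, 10.37 and 9.73 at 10 months, and 10.16, 10.19, 9.93 and 10.36 at 18 months. Here too all older samples exceeded the 2-month samples, while Nfe2l1 itself had -0.26 ± 0.25 (adjusted p = 0.584). Fbxo7, a ubiquitin ligase adaptor that binds Psmf1, read 9.29, 9.63 and 9.58 at 2 months, 10.16, 10.18, 10.27 and 9.98 at 10 months, and 10.10, 10.08, 10.17 and 10.27 at 18 months. It rose by 0.66 ± 0.11 at 18 against 2 months (adjusted p = 0.00926, limma) and by 0.64 ± 0.11 at 10 against 2 months (adjusted p = 0.0347). Fbxo7 was the 1 gene of the 24 that changed at 10 against 2 months, where 1.48% of all genes changed.

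Usp14, a deubiquitinase that docks on the base, fell by 0.57 ± 0.15 log2 units at 18 against 2 months (adjusted p = 0.0388, limma). It read 11.45, 11.25 and 11.05 at 2 months, 10.64, 11.05, 10.86 and 10.69 at 10 months, and 10.60, 10.95, 10.47 and 10.69 at 18 months. The 18-month samples were thus below all 2-month samples. The highest value came from sample 1 of the 2-month group, and a fit without that sample is not given here. The interferon-inducible catalytic subunits Psmb8 and Psmb9 had 0.37 ± 0.26 and 0.40 ± 0.15 and did not pass the test (adjusted p = 0.445 and 0.13). Sem1, a small subunit of the lid outside the Psm names, had -0.42 ± 0.20 (adjusted p = 0.233), and the core maturation factor Pomp had 0.35 ± 0.30. At 18 against 10 months none of the 24 genes changed.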

How the data were processed

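Wild type C57BL/6 mice of 2, 10 and 18 months were profiled on 12 arrays, 4 per age, each from VTA tissue pooled from 5 mice. The deposited values are log2 RMA signals of 45101 probe sets, made by the authors from the scanned arrays. The submitters' processing notes name RMA and limma 3.4.5. RMA corrects background within each array and fits quantiles and probe effects over all arrays together. Levels of different probe sets are not comparable as amounts of RNA, and brightness here means signal only. Genes were named from the platform annotation: 34945 probe sets had 1 gene, 932 several and 9160 none. After removal of 64 control probe sets, limma 3.58.1 (R 4.3.3; lmFit, contrasts.fit, eBayes) was run on 45037 probe sets over the 3 ages, with arrays 3 and 4 of the 2-month group averaged. P-values were adjusted by Benjamini-Hochberg over all of them, and a change was called at an adjusted p under 0.05 with over 1.3-fold. The script was tested on simulated data. A gene was represented by its brightest probe set, the one with the highest mean. Named with values were all called members and, in each group, the genes with the most positive and most negative change at 18 against 2 months. The members and gene lists were chosen with earlier results of these data known. Array number, not read depth, limits the precision. Alternatives were 12 separate arrays, median centring, the replicate number as a block, the 3′ minus 5′ covariate, a filter on dim probe sets, a fit of 2 ages, an intensity trend, no fold threshold, the mean over the probe sets of a gene, and each sample left out.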

Additional observations from a re-analysis of the deposited data

Results flagged for a closer look

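In 48 groups of 4 samples, from 24 named probe sets at 10 and 18 months, 4 groups held a sample that stood apart from the others by Dixon's criterion, which chance gives in about 1 in 20 groups. Psmg2 1425373_a_at read 9.46 in sample 1 at 10 months, with the nearest other sample at 8.98, and was above all 2-month samples either way. Psmd5 1423234_at read 9.78 in sample 1 at 18 months, with the next at 9.62. Psme3 1418079_at read 10.4 in sample 2 at 10 months, with the next at 10.1. Psmg3 1424087_at read 8.67 in sample 3 at 10 months, with the nearest at 9.39.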

How the results depend on the processing

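The calls at 18 against 2 months numbered 15 and depended on the samples, between 2 (without sample 1 of the 2-month group) and 22 (without sample 3 of the 10-month group). At 10 against 2 months 4 calls became 0 to 7, with 7 without the averaged 2-month sample. With the replicate number as a block and 12 separate arrays there were 11 and 0 calls, although same-numbered arrays deviated together in 4 of 12 pairs only and the numbers therefore do not pair the samples. An intensity trend gave 11 and 1, and a fit of the 2 ages alone 14 and 0. The 3′ minus 5′ covariate, which nearly tracks age, left 0 and 0, with medians for the core, base and lid of 0.075, -0.082 and -0.19 at 18 against 2 months and 0.11, 0.13 and -0.19 at 10 against 2 months. It turned the sign of Psmb1 1420053_at (0.20), Psmd4 1425859_a_at (-0.025), Psmd7 1451056_at (-0.46), Psmb11 1453150_at (0.21) and Psmb3 1460198_a_at (0.22). Separate arrays gave 21 and 5 calls, centring 17 and 4, the filter on dim probe sets 16 and 3, and dropping the fold threshold 15 and 4. No member was called at 18 against 10 months under any of these. All these counts are of members only. The shares over all probe sets in the same settings are not given here, so the shifts cannot be called particular to proteasome genes. With the mean over the probe sets of a gene the medians at 18 against 2 months were 0.093 for the core and 0.15 for the lid, and that of the core at 10 against 2 months was 0.12. With a sample left out, the base median was 0.18 to 0.51 at 18 against 2 months and 0.17 to 0.43 at 10 against 2 months (0.17 without sample 3 of the 10-month group). The core median at 10 against 2 months was -0.024 to 0.15 and the lid median -0.11 to 0.12. Psme3 1418079_at, which passed no test, was -0.0030 to 0.15. The cause of these shifts was not tested.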
